A study of Homo sapiens with 9 samples.

Results

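The genes described here encode the machinery that carries proteins into mitochondria and folds them there. They were chosen by symbol: every name that begins with TIMM or TOMM and a digit, together with SAMM50, MTX1, MTX2, PAM16, DNAJC19, GRPEL1, HSPA9, HSPD1, HSPE1, CHCHD4, GFER, PMPCA and PMPCB. This gave 36 genes among the 11350 of the count table. RNA-seq was performed in HCT116 cells, a human colorectal carcinoma line, without any treatment, in 3 forms. HUWE1-P cells are the parental line. HUWE1-WT cells carry an edited endogenous HUWE1 gene that keeps the catalytic cysteine, and HUWE1-CS cells an edited gene in which that cysteine is a serine. HUWE1 is a large ubiquitin ligase of the HECT type, and the comparison of HUWE1-CS with both controls asks which transcripts depend on its catalytic residue. Both edited lines were made with the same kind of repair template, which also brings in a P2A sequence with a gene for blasticidin resistance, and were grown from single cells after puromycin and blasticidin selection, steps that the parental cells did not share. There were 3 libraries of each line, and whether those of an edited line came from 1 clone or several is not given in the sources used here, so that p-values measure the spread between these libraries alone.

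Nearly all mitochondrial proteins are made in the cytosol and enter through the TOM complex, a pore with receptors in the outer membrane. Behind it the routes part: the SAM complex inserts barrel-shaped proteins into the outer membrane, the MIA pathway traps small cysteine-rich proteins in the intermembrane space by forming disulfides, the TIM22 complex inserts carrier proteins into the inner membrane, and the TIM23 complex passes proteins with a presequence to the matrix. There the PAM motor pulls them in, a peptidase removes the presequence, and a chaperonin folding chamber helps them to fold. Genes of this machinery are expressed in nearly every human cell.

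Library totals lay between 1610984 and 2060349 counts, and the 36 import genes took 0.588% to 0.632% of the counts of a library, with overlapping shares in the 3 lines. All 36 had at least 10 counts in every library, with a lowest count of 14 and a highest of 4216. Levels are given as CPM, counts relative to library size after TMM normalization, and differences as log2 fold changes ± SE. Genes were tested over all 9 libraries with the quasi-likelihood F-test of edgeR and called at a false discovery rate (FDR) of at most 0.01. HUWE1 itself, the edited gene, had 543 ± 19.8 CPM in HUWE1-P, 469 ± 25.8 in HUWE1-WT and 336 ± 11.7 in HUWE1-CS cells (mean ± SD, n = 3). Its HUWE1-CS libraries lay below those of both controls; the exchange of the residue itself cannot be seen in counts per gene. Of 8 listed markers of colon epithelium, 6 (EPCAM, CDH1, KRT8, KRT18, KRT19 and CDX2) were among the genes used here, and their summed level was 3670 to 4044 CPM in HUWE1-CS libraries and 4115 to 4533 CPM in the controls. The sum follows the abundant keratins: against HUWE1-P cells KRT8 (-0.32) and KRT18 (-0.30) were lower, EPCAM (0.28) and CDH1 (0.53) were higher, and KRT19 (0.15) and CDX2 (0.44) were not called. COL1A1 was the only 1 of 5 fibroblast markers among these genes and had 8.71 to 14.8 CPM in HUWE1-CS libraries and 18.0 to 25.6 CPM in the controls. Of 4 leukocyte markers only CD68 was among them, at 6.39 to 14.5 CPM in all libraries, and of 3 endothelial markers none was. Markers and import genes were measured in the same libraries, and the part of the markers' differences in the values below was not tested. In bulk RNA, fewer cells with a transcript and less of it per cell cannot be told apart.

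Most import genes showed small differences between HUWE1-CS and HUWE1-P cells, while 4 passed the test. TOMM7, SAMM50 and PMPCA were higher and TIMM21 was lower in HUWE1-CS cells, beside 8.46% of all genes higher and 8.58% lower. These 4 of 36 (11.1%) stand beside 1934 of all 11350 genes, a background of 17.0%, so that the share of import genes called was not above that of all genes. Over the 36, the log2 fold change had a median of 0.01, beside -0.01 over all genes. The median absolute log2 fold change was 0.15, beside 0.22. For 22 of the 36 the change was at most 0.2 in size, beside 5234 of all 11350 genes. The import genes were also measured more closely, with a median SE of 0.106, beside 0.152 over all genes. Between the control lines their median absolute log2 fold change was 0.049, beside 0.102. What part of the difference in size goes with this precision was not tested. Against HUWE1-WT cells 3 of the 36 (8.33%) were called, beside a background of 15.5%. These were TIMM21, TOMM7 and SAMM50, each in the direction seen against HUWE1-P cells, with 7.42% of all genes higher and 8.08% lower. At an FDR of 0.05, 8 and 7 of the 36 were called against HUWE1-P and HUWE1-WT cells, beside 26.4% and 24.4% of all genes. The comparisons share the HUWE1-CS libraries, so that the agreement of their directions is not independent. PMPCA, called against HUWE1-P cells, had a log2 fold change of 0.20 ± 0.08 against HUWE1-WT cells and an adjusted p of 0.0403 by edgeR, short of the threshold.

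Between the control lines HUWE1-WT and HUWE1-P, 0 of the 36 import genes were called by edgeR, 0 by DESeq2 and 0 by limma-voom, beside a background of 0.0617% by edgeR. At an unadjusted p under 0.05 in edgeR there was 1, TIMM8A. The median log2 fold change of the 36 was 0.01, and 34 of them lay within 0.2 of no change. The plot of all import genes by library has mostly pale columns for HUWE1-P and HUWE1-WT, apart from low genes such as TIMM8A, CHCHD4 and DNAJC19, and its strong colours lie in a few genes of the HUWE1-CS columns.

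**Figure D1:**
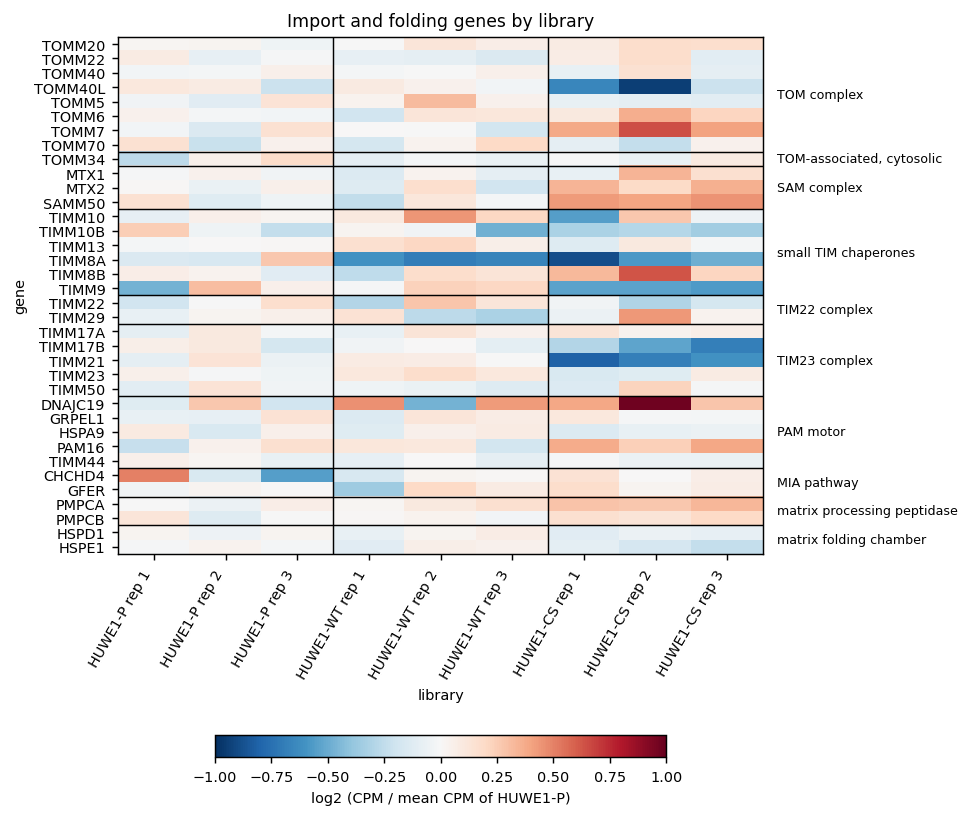
The 36 import and folding genes (vertical axis, grouped by role) in the 9 libraries (horizontal axis), coloured by the log2 ratio of the CPM to the mean CPM of the 3 HUWE1-P libraries. TIMM21 was below and TOMM7, SAMM50 and PMPCA were above the controls in all 3 HUWE1-CS libraries, and most other genes changed by 0.2 or less.

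The 4 genes that were called, and the chaperonin gene HSPE1, are shown here by the sequence around their start sites, since expression of many import genes is tied in textbook accounts to the factors NRF1, YY1 and the ETS factor GABPA and, for chaperonins, to the heat shock factor. The windows are RefSeq sequence of GRCh38.p14, 250 bases before to 50 after the start, written 5′ to 3′ on the strand of the gene. Capitals mark matches to any of 4 motifs, searched on both strands: an NRF1-type motif CGCNTGCGC, an ETS-type motif CCGGAAG, a YY1-type motif AAGATGGCG and a facing pair of heat shock element units TTCNNGAA. The TIMM21 window is chr18:74148273-74148572 (plus strand), the SAMM50 window chr22:43955192-43955491 (plus), the TOMM7 window chr7:22822800-22823099 (minus), the PMPCA window chr9:136410408-136410707 (plus) and the HSPE1 window chr2:197500129-197500428 (plus).
TIMM21: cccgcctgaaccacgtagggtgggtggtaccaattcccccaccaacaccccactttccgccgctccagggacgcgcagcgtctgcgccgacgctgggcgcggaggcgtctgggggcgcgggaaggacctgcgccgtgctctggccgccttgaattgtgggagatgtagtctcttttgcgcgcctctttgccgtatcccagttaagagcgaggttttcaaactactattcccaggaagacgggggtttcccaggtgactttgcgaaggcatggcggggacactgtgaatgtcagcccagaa
SAMM50: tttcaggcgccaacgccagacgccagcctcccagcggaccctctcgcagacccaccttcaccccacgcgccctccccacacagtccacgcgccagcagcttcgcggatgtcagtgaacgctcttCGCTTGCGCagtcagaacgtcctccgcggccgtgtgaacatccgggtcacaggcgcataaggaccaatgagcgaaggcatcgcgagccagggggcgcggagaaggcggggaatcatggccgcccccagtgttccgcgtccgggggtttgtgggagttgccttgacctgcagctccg
TOMM7: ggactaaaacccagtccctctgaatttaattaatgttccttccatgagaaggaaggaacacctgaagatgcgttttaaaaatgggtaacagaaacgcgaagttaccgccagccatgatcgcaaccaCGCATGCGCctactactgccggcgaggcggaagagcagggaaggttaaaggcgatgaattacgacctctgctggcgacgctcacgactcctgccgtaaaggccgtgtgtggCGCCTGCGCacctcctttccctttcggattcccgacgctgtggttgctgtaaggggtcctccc
PMPCA: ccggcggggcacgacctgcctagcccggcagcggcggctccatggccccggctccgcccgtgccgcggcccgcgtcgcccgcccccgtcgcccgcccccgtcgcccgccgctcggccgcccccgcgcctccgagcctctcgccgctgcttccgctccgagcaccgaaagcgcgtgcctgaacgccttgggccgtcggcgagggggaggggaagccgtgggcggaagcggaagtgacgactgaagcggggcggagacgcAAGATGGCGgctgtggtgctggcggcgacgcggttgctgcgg
HSPE1: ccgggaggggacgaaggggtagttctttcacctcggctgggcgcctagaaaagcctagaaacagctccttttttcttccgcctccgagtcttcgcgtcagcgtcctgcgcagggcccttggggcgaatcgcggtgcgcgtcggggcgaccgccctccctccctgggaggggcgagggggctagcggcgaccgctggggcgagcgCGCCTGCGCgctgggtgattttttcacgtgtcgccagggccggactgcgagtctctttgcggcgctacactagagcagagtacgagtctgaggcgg

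TOMM7 holds the NRF1-type letters at 2 places and SAMM50 and HSPE1 at 1 place each, PMPCA holds the YY1-type letters close to its start site, and TIMM21 holds none of the 4 motifs in this window. No 2 of these matches overlap. HSPE1 and HSPD1 lie head to head, and the HSPE1 window shares 204 bases with a window of HSPD1. The NRF1-type match of HSPE1 lies in this shared stretch, so that the same letters count for both genes. Windows were found for 33 of the 36 genes, all but GRPEL1, TIMM8B and TOMM5. The NRF1-type motif was in 32.4% of the 37 windows of import genes, the ETS-type motif in 32.4%, the YY1-type motif in 8.11% and the heat shock pair in 10.8%. Over all 35116 windows of the table the same motifs were in 7.52%, 10.3%, 1.75% and 7.74%, and over the 13209 windows of the genes tested here in 13.5%, 18%, 3.76% and 6.1%. Counted by gene, they were in 36.4%, 36.4%, 9.09% and 12.1% of the 33 import genes. Of the 9041 tested genes with a window, 18.3%, 24.1%, 5.21% and 8.25% held them. Of the 12 import genes with the NRF1-type motif (CHCHD4, HSPD1, HSPE1, PAM16, SAMM50, TIMM13, TIMM29, TIMM9, TOMM20, TOMM34, TOMM40 and TOMM7), SAMM50 and TOMM7 were called in a comparison with HUWE1-CS cells. The heat shock pair was found in HSPA9, HSPD1, TIMM10 and TOMM70, none of them called. Over all genes, 17.0% were called against HUWE1-P and 15.5% against HUWE1-WT cells. TIMM21 and PMPCA, also called against HUWE1-P cells, hold no NRF1-type match, and a link between motif and change was not tested. A match describes letters in a window and is not a bound site.

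The strongest change was in the TIM23 complex of the inner membrane. TIMM21, a subunit that links the TIM23 channel to the TOM complex and to the respiratory chain, stood at 54.6, 64.0 and 55.9 CPM in HUWE1-P cells, 61.4, 61.1 and 58.1 CPM in HUWE1-WT cells and 33.2, 36.3 and 38.3 CPM in HUWE1-CS cells. All 3 HUWE1-CS libraries lay below all 6 controls, with a wide gap between them. The log2 fold change was -0.69 ± 0.14 against HUWE1-P cells (95% interval -0.97 to -0.41; edgeR, adjusted p = 4.59e-05) and -0.74 ± 0.14 against HUWE1-WT cells (interval -1.02 to -0.46; edgeR, adjusted p = 1.32e-05), a level of 0.619 and 0.598 times that of the controls. The gene (Entrez 29090) lies at chr18:71815758-71827766 on the plus strand of GRCh37, and no other gene overlaps it in the annotation used. TIMM21 was called in every fit that was run, 21 in each comparison besides the one given.

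The other TIM23 subunits did not pass the test. TIMM23, the channel itself, stood at 108, 103 and 101 CPM in HUWE1-P, 112, 117 and 112 CPM in HUWE1-WT and 93.8, 95.8 and 110 CPM in HUWE1-CS cells. TIMM50, the receptor that takes presequences from the TOM complex, stood at 105, 124 and 110 CPM in HUWE1-P, 110, 108 and 103 CPM in HUWE1-WT and 103, 132 and 112 CPM in HUWE1-CS cells. The HUWE1-CS libraries overlap those of HUWE1-P for both genes, and for TIMM23 the HUWE1-WT libraries lay above both other lines. TIMM23 had a log2 fold change of -0.18 ± 0.10 against HUWE1-WT cells (edgeR, adjusted p = 0.167). Against HUWE1-P cells, the interval of the log2 fold change was -0.25 to 0.14 for TIMM23 and -0.16 to 0.23 for TIMM50. TIMM23 has a near-identical copy, TIMM23B, that is not among the genes used here, and how reads of the pair were assigned is not given in the sources used here. TIMM17A and TIMM17B encode alternative partners of the channel: TIMM17A had a log2 fold change of 0.07 ± 0.08 and TIMM17B of -0.48 ± 0.28 against HUWE1-P cells, and neither was called (edgeR, adjusted p = 0.547 and 0.207). TIMM17B was a low gene with 13.1 ± 1.33 CPM in HUWE1-P, 12.7 ± 0.442 CPM in HUWE1-WT and 9.29 ± 1.29 CPM in HUWE1-CS cells.

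In the TOM complex, 1 of 8 genes was called against each control, beside 17.0% of all genes against HUWE1-P and 15.5% against HUWE1-WT cells. TOMM7, a small subunit that shapes the assembly of the complex and is needed to hold PINK1 at the outer membrane, stood at 68.3, 62.9 and 77.1 CPM in HUWE1-P, 69.5, 69.3 and 61.1 CPM in HUWE1-WT and 90.2, 108 and 91.7 CPM in HUWE1-CS cells. The HUWE1-CS libraries lay above all controls. The log2 fold change was 0.47 ± 0.11 against HUWE1-P cells (interval 0.25 to 0.69; edgeR, adjusted p = 0.000462) and 0.54 ± 0.11 against HUWE1-WT cells (interval 0.31 to 0.76; edgeR, adjusted p = 9.34e-05). The gene (Entrez 54543) lies at chr7:22852247-22862468 on the minus strand of GRCh37. The call against HUWE1-P cells was lost without replicate 2 of HUWE1-CS (edgeR, adjusted p = 0.0132). With a trend with transcript length removed, the log2 fold change was 0.17 against HUWE1-P and 0.26 against HUWE1-WT cells, and TOMM7 was called in neither (edgeR, adjusted p = 0.269 and 0.0785).

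The pore and the receptors of the TOM complex changed less. TOMM40, the pore, stood at 293, 295 and 310 CPM in HUWE1-P, 296, 299 and 310 CPM in HUWE1-WT and 284, 333 and 282 CPM in HUWE1-CS cells. The HUWE1-CS libraries lie on both sides of the controls, and against HUWE1-P cells the log2 fold change had an interval of -0.14 to 0.14. TOMM20, the receptor for presequences, stood at 346, 348 and 332 CPM in HUWE1-P, 342, 373 and 358 CPM in HUWE1-WT and 362, 387 and 384 CPM in HUWE1-CS cells. TOMM22, the central receptor that docks TOMM20, stood at 209, 186 and 196 CPM in HUWE1-P, 186, 185 and 179 CPM in HUWE1-WT and 207, 223 and 183 CPM in HUWE1-CS cells. For TOMM70, the receptor for carrier precursors brought by cytosolic chaperones, the values were 174, 134 and 161 CPM in HUWE1-P, 138, 160 and 179 CPM in HUWE1-WT and 147, 133 and 161 CPM in HUWE1-CS cells. For TOMM20 the HUWE1-CS libraries lay above all of HUWE1-P and overlapped HUWE1-WT, with a log2 fold change of 0.14 ± 0.07 against HUWE1-P cells (edgeR, adjusted p = 0.0991). For TOMM22 and TOMM70 they overlapped both controls, and none of the 3 receptors was called. TOMM22 and TOMM20 have 6 and 4 annotated pseudogenes by name, which can share reads with them. Of the other small subunits, TOMM6 had a log2 fold change of 0.23 ± 0.08 and TOMM5 of -0.10 ± 0.10 against HUWE1-P cells (edgeR, adjusted p = 0.0242 and 0.509). TOMM40L, a relative of the pore gene, lay below the controls in all HUWE1-CS libraries at 13.2 ± 3.37 CPM, beside 19.6 ± 2.36 and 20.1 ± 0.840 CPM in HUWE1-P and HUWE1-WT cells, and was not called (edgeR, adjusted p = 0.0653 and 0.0449). TOMM34, a cytosolic cochaperone named with the group, had a log2 fold change of -0.01 ± 0.10.

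**Figure D2:**
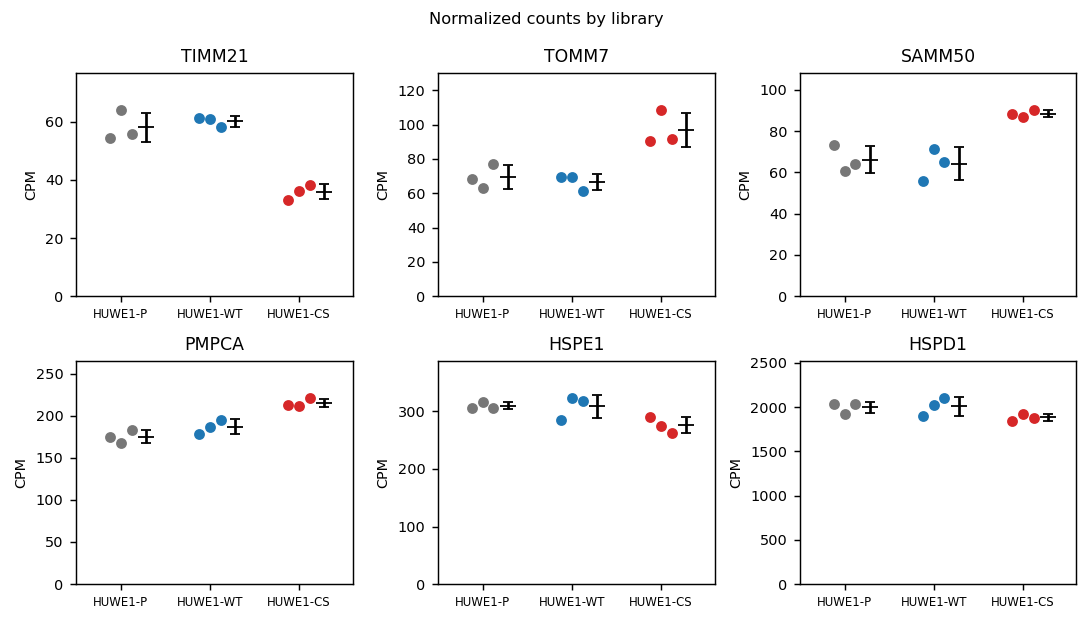
CPM (vertical axes, from 0) of 6 genes in the 3 lines (horizontal axes), with a point for each library and the mean ± SD of 3 libraries beside it. The HUWE1-CS points lie below all controls for TIMM21 (33.2 to 38.3 CPM) and above them for TOMM7, SAMM50 and PMPCA, and for HSPE1 and HSPD1 they lie below HUWE1-P, with 1 point of each gene within the range of HUWE1-WT.

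The SAM complex had 3 genes, all with positive log2 fold changes in HUWE1-CS cells, of which 1 was called. Over all genes, 49.1% had a positive log2 fold change against HUWE1-P cells, and 17.0% were called. SAMM50, the barrel that inserts other barrel proteins into the outer membrane, stood at 73.2, 60.6 and 64.1 CPM in HUWE1-P, 55.6, 71.4 and 65.1 CPM in HUWE1-WT and 88.4, 86.8 and 90.0 CPM in HUWE1-CS cells. The HUWE1-CS libraries lay close together and above every control. The log2 fold change was 0.43 ± 0.11 against HUWE1-P (interval 0.20 to 0.65; edgeR, adjusted p = 0.00229) and 0.46 ± 0.12 against HUWE1-WT cells (interval 0.23 to 0.69; edgeR, adjusted p = 0.00116). The gene (Entrez 25813) lies at chr22:44351322-44406411 on the plus strand of GRCh37, and the same strand holds overlapping annotated spans of PARVB and PNPLA3. Its call against HUWE1-P cells was lost with DESeq2 (adjusted p = 0.0244), with the length trend removed (edgeR, adjusted p = 0.0128) and without replicate 2 or 3 of HUWE1-P (edgeR, adjusted p = 0.0219 and 0.0163), and that against HUWE1-WT cells with DESeq2 (adjusted p = 0.0151) and without replicate 1 of HUWE1-WT (edgeR, adjusted p = 0.0234). The metaxins MTX1 and MTX2, its partners on the cytosolic face, had log2 fold changes of 0.16 ± 0.12 and 0.29 ± 0.14 against HUWE1-P cells and were not called (edgeR, adjusted p = 0.352 and 0.117). MTX2 was above all controls in each HUWE1-CS library, with 51.3 ± 3.18 CPM beside 41.8 ± 1.79 CPM in HUWE1-P and 40.6 ± 5.52 CPM in HUWE1-WT cells.

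The matrix processing peptidase, which cuts the presequence from imported proteins, has a regulatory subunit, PMPCA, and a catalytic subunit, PMPCB. PMPCA stood at 174, 168 and 183 CPM in HUWE1-P, 178, 187 and 195 CPM in HUWE1-WT and 213, 212 and 221 CPM in HUWE1-CS cells. PMPCB stood at 105, 88.1 and 96.4 CPM in HUWE1-P, 97.3, 98.7 and 94.8 CPM in HUWE1-WT and 108, 105 and 111 CPM in HUWE1-CS cells. The HUWE1-CS libraries lay above all controls for PMPCA, with a clear gap, and for PMPCB narrowly. PMPCA had a log2 fold change of 0.29 ± 0.08 against HUWE1-P cells (interval 0.14 to 0.45; edgeR, adjusted p = 0.00194), and PMPCB of 0.17 ± 0.10 (edgeR, adjusted p = 0.217). PMPCA (Entrez 23203) lies at chr9:139305082-139322444 on the plus strand of GRCh37. Its call was lost with DESeq2 (adjusted p = 0.0125) and without replicate 2 of HUWE1-P (edgeR, adjusted p = 0.0175).

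The small TIM chaperones, which escort greasy precursors across the intermembrane space as ring-shaped complexes, had 0 of 6 genes called by edgeR, DESeq2 or limma-voom, and 3 (TIMM8A, TIMM8B and TIMM9) at an unadjusted edgeR p under 0.05 against HUWE1-P cells. Of all 11350 genes, edgeR called 17.0% in that comparison, 4100 had such an unadjusted p and 5778 had a negative log2 fold change. In HUWE1-CS against HUWE1-P cells, 5 of the 6 log2 fold changes were negative, with a median of -0.18, and the sixth, TIMM8B, was 0.41 ± 0.14 (edgeR, adjusted p = 0.0214). At this threshold TIMM8B was called only without replicate 3 of HUWE1-CS (edgeR, adjusted p = 0.0096). TIMM8A, the gene of deafness-dystonia syndrome, ranged from 19.6 to 26.5 CPM in HUWE1-P, from 13.6 to 14.5 CPM in HUWE1-WT and from 11.9 to 15.7 CPM in HUWE1-CS cells. It was low in both edited lines alike: relative to HUWE1-P cells, the log2 fold change was -0.65 ± 0.23 in HUWE1-CS and -0.66 ± 0.23 in HUWE1-WT cells, and it was 0.01 ± 0.25 between the edited lines (edgeR, adjusted p = 0.0203, 0.592 and 0.984). TIMM9, partner of TIMM10 in the main ring, had 18.1 ± 4.75, 20.1 ± 1.82 and 12.4 ± 0.160 CPM in the parental, HUWE1-WT and HUWE1-CS libraries, and its log2 fold change against HUWE1-WT was -0.69 ± 0.24 (edgeR, adjusted p = 0.0224). TIMM10, TIMM10B and TIMM13 had log2 fold changes of -0.07 ± 0.21, -0.30 ± 0.18 and -0.01 ± 0.10 against HUWE1-P cells. Apart from TIMM13 these are low genes, and their SEs against HUWE1-P cells reached 0.24.

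TIMM22, the channel for carrier proteins, stood at 37.9, 43.2 and 48.7 CPM in HUWE1-P, 35.3, 52.4 and 47.1 CPM in HUWE1-WT and 42.1, 35.2 and 38.3 CPM in HUWE1-CS cells. Its partner TIMM29 had a log2 fold change of 0.15 ± 0.20 against HUWE1-P cells, and TIMM22 of -0.18 ± 0.15. The lines overlap, and neither gene was called. In the MIA pathway, the oxidoreductase CHCHD4 (known as MIA40) stood at 44.1, 28.1 and 21.2 CPM in HUWE1-P, 27.8, 31.6 and 31.4 CPM in HUWE1-WT and 34.4, 31.2 and 32.5 CPM in HUWE1-CS cells. GFER, the oxidase that recharges it, stood at 47.8, 50.0 and 49.1 CPM in HUWE1-P, 38.2, 56.2 and 51.7 CPM in HUWE1-WT and 55.2, 49.9 and 51.7 CPM in HUWE1-CS cells. The widest spread of CHCHD4 was among the parental libraries themselves, and both genes overlap between the lines. Their log2 fold changes against HUWE1-P cells were 0.11 ± 0.18 and 0.09 ± 0.14.

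**Figure D3:**
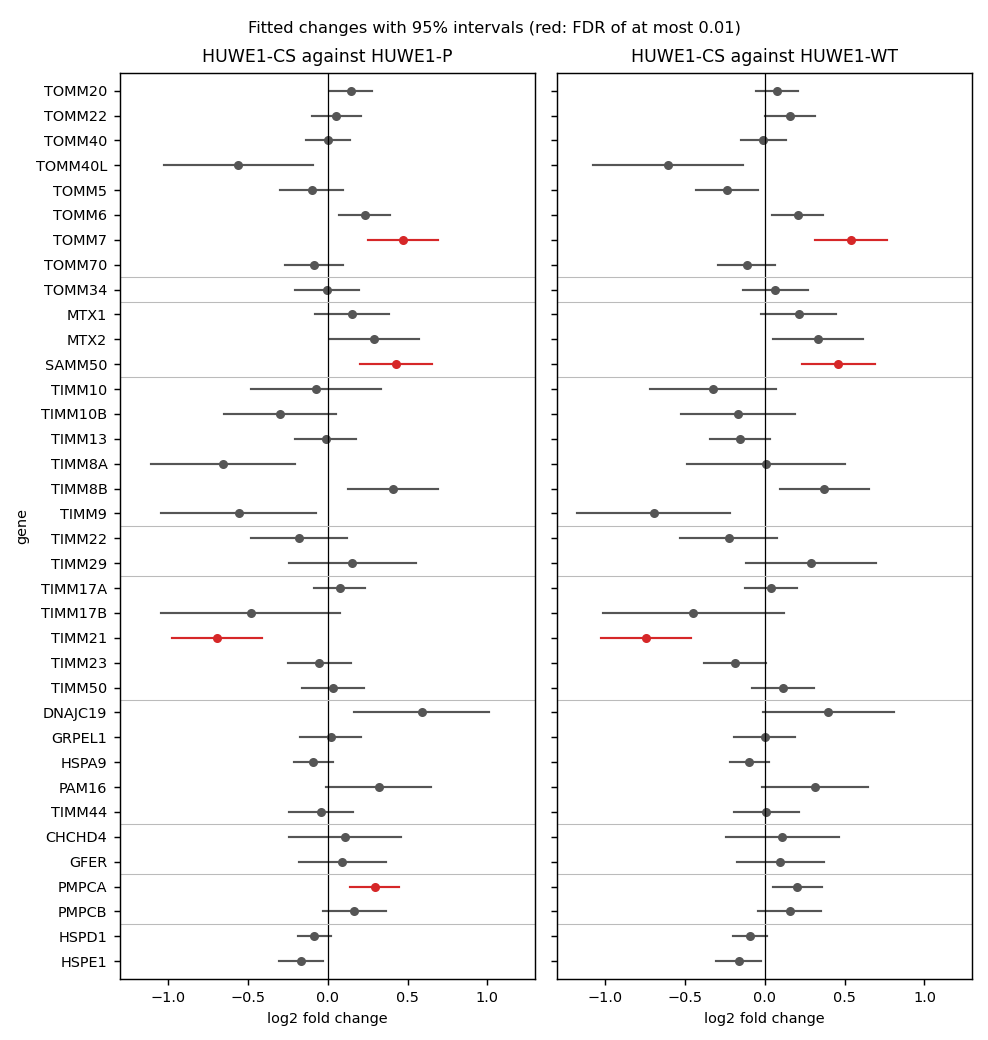
Log2 fold changes (horizontal axes) of the 36 genes (vertical axis, grouped by role) in HUWE1-CS against HUWE1-P and against HUWE1-WT cells, with 95% intervals of the edgeR fit over 9 libraries, red at an FDR of at most 0.01. TOMM7, SAMM50 and TIMM21 are red in both panels and PMPCA (0.29) on the left alone, and most other intervals include 0.

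Of the PAM motor, 0 of 5 genes were called by edgeR, DESeq2 or limma-voom, and 1, DNAJC19, had an unadjusted edgeR p under 0.05 against HUWE1-P cells. Among all 11350 genes, edgeR called 17.0% in that comparison, and 4100 had such an unadjusted p. HSPA9, the matrix chaperone that drives the motor and is known as mortalin, stood at 793, 670 and 770 CPM in HUWE1-P, 684, 772 and 787 CPM in HUWE1-WT and 675, 708 and 714 CPM in HUWE1-CS cells. TIMM44, which anchors it at the channel, stood at 98.7, 96.5 and 90.6 CPM in HUWE1-P, 89.8, 95.4 and 89.5 CPM in HUWE1-WT and 94.4, 91.3 and 91.2 CPM in HUWE1-CS cells. Both genes overlap between the lines, and the intervals against HUWE1-P cells were -0.21 to 0.03 for HSPA9 and -0.24 to 0.16 for TIMM44. GRPEL1, which exchanges the nucleotide of HSPA9, had a log2 fold change of 0.02 ± 0.10. The J-domain cochaperone DNAJC19 and its J-like partner PAM16 had 0.59 ± 0.21 and 0.32 ± 0.17 (edgeR, adjusted p = 0.0279 and 0.151). DNAJC19 had 18.2 ± 3.24 CPM in HUWE1-P, 20.8 ± 6.69 CPM in HUWE1-WT and 27.2 ± 7.45 CPM in HUWE1-CS cells and 9 annotated pseudogenes, and PAM16 overlaps the readthrough gene CORO7-PAM16 on its own strand, so that reads of either may be split.

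The chaperonin of the matrix was the most abundant product of the group. Per kilobase of transcript in the 6 control libraries, HSPD1, the barrel subunit, had 892 CPM and HSPE1, its lid, 555 CPM, followed by TOMM6 at 313 CPM and at the other end TOMM40L at 7.11 CPM. HSPD1 stood at 2031, 1927 and 2031 CPM in HUWE1-P, 1895, 2030 and 2100 CPM in HUWE1-WT and 1849, 1919 and 1882 CPM in HUWE1-CS cells. HSPE1 stood at 307, 317 and 306 CPM in HUWE1-P, 286, 323 and 319 CPM in HUWE1-WT and 290, 275 and 262 CPM in HUWE1-CS cells. For both genes the 3 HUWE1-CS libraries lay below all of HUWE1-P, and all but 1 of them, replicate 2 for HSPD1 and replicate 1 for HSPE1, lay below HUWE1-WT as well. The log2 fold changes against HUWE1-P cells were -0.08 ± 0.05 for HSPD1 and -0.17 ± 0.07 for HSPE1 (edgeR, adjusted p = 0.249 and 0.064), with intervals of -0.19 to 0.02 and -0.30 to -0.03. An increase of HSPD1 beyond 0.02 was outside that interval. HSPE1 has 26 and HSPD1 has 18 annotated pseudogenes by name, so that their counts depend on how shared reads were treated.

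Transcript length moved with the fold changes of all genes, which bears on the small import genes. Among the 688 tested genes with a canonical transcript under 1000 bases, the median log2 fold change in HUWE1-CS against HUWE1-P cells was 0.21 and 26.3% were called higher; among the 4401 of at least 4000 bases it was -0.09 and 4.68% were called higher. The 8 import genes under 1000 bases (TIMM10, TIMM8B, PAM16, HSPE1, TOMM6, TOMM7, TOMM5 and TIMM17B) had a median of 0.08. Across genes, which are not independent replicates, Spearman's rho of the log2 fold change with length was -0.22 over the 36 import genes and -0.26 over 11003 genes. TOMM7, at 434 bases, is the shortest of the 36, and TIMM21, at 3084 bases, lies where the median of all genes was 0.01. HSPE1, at 557 bases, was below the median of its class. With the trend with length removed, 5 import genes were called in each comparison with HUWE1-CS cells, beside 16.6% of all genes against HUWE1-P and 15.6% against HUWE1-WT cells. TIMM21 and PMPCA were kept against HUWE1-P cells and TIMM21 and SAMM50 against HUWE1-WT cells. HSPE1 then passed the threshold as lower, with log2 fold changes of -0.43 and -0.41 (edgeR, adjusted p = 4.26e-08 and 2.83e-07), and so did TOMM5 at -0.33 and -0.44 (edgeR, adjusted p = 0.00654 and 0.000208), TIMM8A against HUWE1-P cells (-0.79; edgeR, adjusted p = 0.00433) and TIMM9 against HUWE1-WT cells (-0.79; edgeR, adjusted p = 0.00757). What the trend with length comes from was not tested, and these values are given beside the plain ones because the calls of TOMM7 and HSPE1 turn on it.

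Pairs of genes taken from the known make-up of the complexes were compared by the ratio of their transcripts within a library, which needs no scaling between libraries. Not all are fixed partners: TIMM17A and TIMM17B encode alternatives, and TOMM20 and TOMM70 separate receptors. Of 8 pairs, none reached an adjusted p of 0.05 in an exact 2-sided permutation test of 3 HUWE1-CS against 6 control libraries, where the smallest possible p is 0.0238. Adjustment over 8 pairs leaves a single separated pair at 0.190, so that no pair could have passed alone. The ratio of TIMM17B to TIMM17A counts was 0.0898, 0.0808 and 0.0726 in HUWE1-P, 0.0832, 0.0741 and 0.0735 in HUWE1-WT and 0.0608, 0.0553 and 0.0489 in HUWE1-CS cells. It lay below all controls in each HUWE1-CS library, by 0.52 on the log2 scale (exact permutation p = 0.0238, adjusted 0.190 over 8 pairs). The ratio of lid to barrel, HSPE1 to HSPD1, differed by -0.08 between HUWE1-CS and control libraries, beside a pooled SD of 0.07 (exact permutation p = 0.119, adjusted 0.267). These transcripts differ in length (557 and 2245 bases), and the ratios keep the trend with length. With that trend removed, the log2 fold changes against HUWE1-P cells were -0.43 for HSPE1 and -0.12 for HSPD1. For PMPCB to PMPCA the difference was -0.09 with a pooled SD of 0.08, for TOMM20 to TOMM70 0.21 with a pooled SD of 0.18, and for TIMM10 to TIMM9 0.36 with a pooled SD of 0.31. In TIMM8A to TIMM13 the libraries of both edited lines lay below those of HUWE1-P.

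Looked at without a model, 11 of the 36 import genes had all 3 HUWE1-CS libraries outside the range of the 6 controls, or 30.6%, beside 26.3% of all genes. The 7 above were TOMM7, SAMM50, MTX2, TIMM8B, PAM16, PMPCA and PMPCB, beside a background of 12.9%, and the 4 below were TOMM40L, TIMM9, TIMM17B and TIMM21, beside a background of 13.4%. These were 19.4% of the 36 above and 11.1% below. Those above include the called genes of the outer membrane and both subunits of the processing peptidase, and those below are 3 low genes and TIMM21. For the called genes this is no separate result, since the same counts gave their calls, and a pattern by complex was not tested.

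Lists of further genes on the same route were read in the same fit, with the trend with transcript length left in. Among all tested genes under 1000 bases, 26.3% were called higher against HUWE1-P cells. This share was 13.6% from 1000 to 2000 bases and 7.55% from 2000 to 4000 bases. Of the called genes named below, ROMO1, COX6B1 and CHCHD2 have canonical transcripts under 1000 bases, and TIMMDC1, AGK, MIPEP and MTCH1 have longer ones. The part of length in these lists was not tested. Of 17 other import and sorting factors, 4 were called in HUWE1-CS relative to HUWE1-P cells (23.5%, beside 17.0% of all genes), all higher, and the median log2 fold change was 0.27. TIMMDC1, an assembly factor of respiratory complex I, rose by 0.51 (67.2 ± 6.46 to 95.4 ± 3.60 CPM), AGK, a lipid kinase that is also a TIM22 subunit, by 0.48 (40.3 ± 5.79 to 56.5 ± 2.46 CPM), MIPEP, a peptidase that trims imported proteins after PMPCA and PMPCB, by 0.45 (43.0 ± 3.08 to 58.9 ± 6.02 CPM), and MTCH1, an outer membrane insertase, by 0.27 (192 ± 15.0 to 231 ± 30.1 CPM). Against HUWE1-WT cells 5 of the 17 were called, again all higher: TIMMDC1, MIPEP, MTCH1, ROMO1 and IMMP2L (29.4%, beside 15.5% of all genes). AGK, higher by 0.41 there, was not called (edgeR, adjusted p = 0.0219). IMMP2L is a low gene, with 13, 11 and 3 counts in HUWE1-WT and 21, 29 and 22 counts in HUWE1-CS libraries. It was not called against HUWE1-P cells (edgeR, adjusted p = 0.0219). For MTCH1, replicate 3 of HUWE1-CS (200 CPM) lay within the range of HUWE1-P (175 to 205 CPM).

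Of 15 mitochondrial proteases and other chaperones, 2 were called against HUWE1-P cells (13.3%, beside 17.0% of all genes), both higher, and 1 against HUWE1-WT cells (6.67%, beside 15.5%). TRAP1, the matrix chaperone of the HSP90 family, rose by 0.30 (465 ± 21.3 to 571 ± 20.3 CPM), and by 0.32 against HUWE1-WT cells. PARL, the rhomboid protease that cleaves PINK1, rose by 0.48 against HUWE1-P cells (57.0 ± 5.57 to 79.0 ± 9.14 CPM), and was not called against HUWE1-WT cells (0.36; edgeR, adjusted p = 0.0209). Of 15 twin CX9C proteins, which the MIA pathway imports, 2 were called (13.3%, beside 17.0%), both higher: COX6B1, a subunit of cytochrome oxidase, rose by 0.52 and CHCHD2 by 0.25. Against HUWE1-WT cells COX6B1 (0.42) and TRIAP1 (0.60) were called (13.3%, beside 15.5%). Among cytosolic factors that hand over precursors, calls went in both directions: BTF3 (0.21), which binds nascent chains at the ribosome, was higher, and the chaperone HSPA8 (-0.18) and its cochaperone STIP1 (-0.23) were lower in HUWE1-CS than in HUWE1-P cells. Against HUWE1-WT cells 2 of 12, BTF3 and STIP1, were called (16.7%, beside 15.5%), and HSPA8 was not (-0.15; edgeR, adjusted p = 0.0190). HSPA8 had 2724 ± 63.6 CPM in HUWE1-P and 2400 ± 102 CPM in HUWE1-CS cells. Over the 58 genes of the 4 lists together, DESeq2 called 5 against HUWE1-P and 5 against HUWE1-WT cells, beside 9.59% and 8.79% of all genes, and limma-voom 13 and 11, beside 16.5% and 14.9%. Between HUWE1-WT and HUWE1-P cells, edgeR, DESeq2 and limma-voom called 0 of the 58, and MTCH2 and TRIAP1 had an unadjusted edgeR p under 0.05.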

How the data were processed

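Polyadenylated RNA of 9 libraries was sequenced with single-end reads. The authors demultiplexed the reads with bcl2fastq 2.20, trimmed adapters with Skewer, mapped to hg19 with STAR 2.5.4 and deposited counts per gene, without normalization, for 11350 genes by Entrez identifier. How reads were assigned to genes (tool, gene models, strand, shared reads) is not given in the sources used here, so that overlapping genes and near-identical copies may share counts. The authors also deposited tables of their own edgeR 3.26.8 comparisons (fold changes, p-values and FDR), which were not used.

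Groups came from the sample labels, and no batch is named in them. Counts were tested with edgeR 4.0.16 in R 4.3.3 (TMM, glmQLFit with the legacy estimator, line as the only term, all libraries together, no filter, Benjamini-Hochberg adjustment over all 11350 genes, FDR of at most 0.01). The common dispersion was 0.00228, a coefficient of variation of 4.77%. Alternatives used DESeq2 1.42.0, limma 3.58.1 (voom) and other settings given at the end. Ratios and permutation tests used Python 3.11.15 and SciPy 1.17.1, with 0.5 counts added to each count of a ratio. Gene positions, transcript lengths and overlaps came from GENCODE v44 on GRCh37, and lengths were found for 96.9% of genes. Promoter windows came from RefSeq on GRCh38.p14, and nothing was converted between the builds.

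Replicates differed by more than sampling noise (chi-square per degree of freedom 1.16 to 1.65), so none was counted as a duplicate. On 3 simulated data sets of HUWE1-CS against HUWE1-P, with 200 of 11350 genes changed, the test recovered 76.7% of genes changed by 1 and 39% of those changed by 0.5 on the log2 scale, with 3 of 350 calls false. In the data 1934 genes were called, far more than were changed there, so these shares need not hold for the data. Values per library are printed for the called import genes and for a fixed list of 16 core subunits, and of each further list at most 4 called genes are described. One result of these lists is not reported here. The import genes, lists, pairs and tests were chosen with earlier results of these data known.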

Additional observations from a re-analysis of the deposited data

How the results depend on the processing

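Against HUWE1-P cells 1934 genes were called, 1088 with DESeq2 and 2999 at an FDR of 0.05; against HUWE1-WT cells 1759, 998 and 2774. Import genes called higher in HUWE1-CS against HUWE1-P cells went from 3 to 1 with DESeq2 and with the length trend removed and to 6 at an FDR of 0.05, and those lower from 1 to 4 with the trend removed and to 2 at 0.05. Against HUWE1-WT cells, higher calls went from 2 to 1, 1 and 4, and lower calls from 1 to 4 and 3. With the length trend removed, the median log2 fold changes of the import genes were -0.0378 and -0.0265. The replicate number was also fitted as a block. Deviations of libraries with the same number correlated at r = -0.02 to 0.06 in 9 pairs, and 2 of the 9 libraries correlated best with their own number. Whether libraries with the same number were handled together cannot be told from these correlations. The block called 2021 and 1835 genes and kept the 4 and 3 import genes; block and length trend together gave 1 higher and 4 lower in both comparisons and a median of -0.0263 against HUWE1-WT cells. Between HUWE1-WT and HUWE1-P cells, 7 genes were called, 0 with DESeq2, 4 with a minimum of 10 counts, 1 with a robust fit and 13 at an FDR of 0.05. Leaving out each library in turn gave 1466 to 2018, 1373 to 1766 and 1 to 19 genes called in the 3 comparisons, 1 to 4 and 1 to 2 import genes higher against HUWE1-P and HUWE1-WT cells, 1 lower in each, and medians of -0.0137 to 0.0501 and -0.00769 to 0.0778. The lowest count higher against HUWE1-P cells came without replicate 2 of HUWE1-P, and the highest median without replicate 2 of HUWE1-WT. DESeq2 size factors, total counts, limma-voom, the newer edgeR estimator, the GC trend and fits of only the lines compared kept the same 4 and 3 import genes. Of 2442 values of single genes under alternatives, 2407 kept their side of the threshold, 21 gained and 14 lost it, and no called value changed sign. Values that were not called did so in places, such as CHCHD4 against HUWE1-P cells, 0.11 and -0.13 without replicate 3 of HUWE1-P. Depth limits the low genes: the small TIM chaperones and TIMM17B had SEs of up to 0.29 against either control.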

Other observations

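Ratios of subunits within a complex were also read for pairs chosen after their values were seen, as values with no test. TOMM7 and TOMM5 are both small subunits of the TOM complex with short transcripts (434 and 706 bases). The ratio of their counts was 0.644, 0.627 and 0.643 in HUWE1-P, 0.623, 0.511 and 0.545 in HUWE1-WT and 0.874, 1.06 and 0.908 in HUWE1-CS cells. All HUWE1-CS libraries lay above all controls. TOMM6 to TOMM5 had means of 1.62, 1.49 and 2.01 in the 3 lines, and TIMM21 to TIMM23 had means of 0.561, 0.532 and 0.362.

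Genes next to the called import genes on the chromosome were read as well. For each, 10 tested genes were taken in order of position, equally from both sides, whatever their distance. Those around TIMM21 span chr18:61144191-72921094 of GRCh37. Their median log2 fold change in HUWE1-CS against HUWE1-P cells was -0.03, with 1 called higher and 2 lower, beside -0.69 for TIMM21 itself. It was 0.09 around SAMM50 (2 higher, 1 lower), -0.09 around TOMM7 (0 higher, 2 lower) and 0.08 around PMPCA (1 higher, 0 lower), beside 0.43, 0.47 and 0.29 for these genes.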
